A study of Drosophila melanogaster with 12 samples.

Results

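The windows described here are 1-kb stretches of the Drosophila melanogaster genome. By the limits below, they replicated late in wild-type salivary glands and early in Rif1 mutant salivary glands. They numbered 2568 of 108273 windows on the 5 major chromosome arms outside the proximal heterochromatin, or 2.37%, and fell into 36 domains. The members were chosen by their salivary gland values: a mean smoothed replication timing (RT) score between -2.85 and -1.14 in wild type, a mean above -0.07 in the Rif1 mutant, and more than 100 kb to any window with a wild-type mean below -2.85. Wild-type and Rif1 mutant salivary gland values are therefore a description of the choice. Counts of calls in comparisons that share one of these genotypes' libraries are described beside the count over the whole genome. Such counts are not independent of the choice. Windows with a wild-type mean below -2.85 are called underreplicated here. The study defined its underreplicated regions by another method, and the members were not compared with those regions.

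The series holds 12 libraries in 6 groups of 2. The Rif1 mutant salivary glands carried Rif1 1 over Rif1 2 and the SuUR mutant glands carried SuUR ES, both in w118, and the wild-type salivary glands, fat bodies and follicle cells came from Oregon-R. The wing discs came from the Yellow-white strain, so genotype and strain background cannot be told apart between stocks. Salivary glands came from about 20 female larvae of the third instar per genotype before wandering, and fat bodies from 25 female larvae at 96 h after egg laying. Follicle cell and wing disc nuclei had been sorted in S phase from adult ovaries and from female larvae of the third instar. Each follicle cell library came from 200 ovary pairs, after 2 days on yeast.

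RT describes the order in which parts of the genome are copied during S phase. Large larval tissues such as the salivary gland become polyploid by endocycles, in which DNA is copied without division, and part of their late DNA stays underreplicated. SUUR is a chromatin protein that slows replication forks in late DNA, and Rif1 delays origin firing in late regions of many eukaryotes. In the polyploid tissues the score was computed from DNA copy number, with high values for early and low values for late windows. Late replication and lower copy number cannot be told apart in such a score.

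To show the DNA behind these values, 150 bases at or near the centre of the member window with the highest Rif1 mutant mean are printed for each of the 6 largest domains, on the plus strand of dm6 (RefSeq Release 6 sequence). Capitals mark runs of at least 6 A or 6 T, found in the first sequence only. The first lies in an intron of dpr6, an immunoglobulin-superfamily gene of the nervous system, the second in an intron of the dopamine receptor gene Dop2R, and the fifth overlaps a coding exon of beat-IIa. The remaining ones lie between genes.
dpr6 domain, chr3L:10050425-10050574: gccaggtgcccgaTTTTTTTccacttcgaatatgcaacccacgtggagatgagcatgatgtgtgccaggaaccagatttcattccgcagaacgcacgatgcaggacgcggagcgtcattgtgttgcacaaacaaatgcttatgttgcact
Dop2R domain, chrX:20039425-20039574: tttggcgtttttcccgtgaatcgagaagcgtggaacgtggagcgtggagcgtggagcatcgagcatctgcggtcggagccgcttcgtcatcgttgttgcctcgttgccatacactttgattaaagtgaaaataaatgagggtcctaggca
trn domain, chr3L:13074425-13074574: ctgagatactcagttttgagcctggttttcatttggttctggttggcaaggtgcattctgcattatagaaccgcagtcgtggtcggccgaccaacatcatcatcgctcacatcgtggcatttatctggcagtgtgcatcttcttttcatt
CG14459 domain, chr3L:22638425-22638574: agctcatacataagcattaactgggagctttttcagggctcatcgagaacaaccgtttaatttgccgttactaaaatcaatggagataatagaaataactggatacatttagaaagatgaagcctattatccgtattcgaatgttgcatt
Mur89F domain, chr3R:17321425-17321574: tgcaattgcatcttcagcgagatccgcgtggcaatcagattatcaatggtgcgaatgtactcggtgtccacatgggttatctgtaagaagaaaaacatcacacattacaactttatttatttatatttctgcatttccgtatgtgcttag
zfh1 domain, chr3R:30687425-30687574: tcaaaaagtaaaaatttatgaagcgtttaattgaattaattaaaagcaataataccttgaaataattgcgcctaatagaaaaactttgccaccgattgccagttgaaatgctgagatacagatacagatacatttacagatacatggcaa
Their G and C content was 50%, 52.0%, 46.7%, 35.3%, 38.7% and 30.0% in that order. Within the central 150 bases, 25.1% of the member windows held such a run, against 33.1% of the late windows that stayed late without Rif1 and 23.9% of 108272 eligible windows.

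A total of 246 annotated genes started inside a member window, 150 of them protein-coding, and the 150 bases before each start were searched on both strands for a match to the core promoter box TATAAA, to TATCGATA, which the factor DREF binds, and to the GAGA factor motif GAGAG. The first was present before 45 of the 150 genes, or 30.0%, against 29.1% of 79 genes that started in windows that stayed late and 29.2% of 13551 eligible genes. The DREF motif was present before 0 of the 150 genes, against 1 of 79 and 6.66% of the 13551. The GAGA factor motif was present before 20.7%, against 26.6% and 18.1%. The promoters shown are examples with a match, picked after the matches were known, 5′ to 3′ towards the gene start, with matches in capitals. Or67c and Or67d encode odorant receptors, beat-IIb an immunoglobulin-domain protein of the beat family, Nep3 a neprilysin peptidase and zfh1 a zinc finger homeodomain transcription factor.
Or67c, chr3L:10244707-10244856, minus strand: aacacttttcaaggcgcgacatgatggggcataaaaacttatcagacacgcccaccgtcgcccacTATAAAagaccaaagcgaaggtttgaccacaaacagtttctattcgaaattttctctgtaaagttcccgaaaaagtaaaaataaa
Or67d, chr3L:10273054-10273203, plus strand: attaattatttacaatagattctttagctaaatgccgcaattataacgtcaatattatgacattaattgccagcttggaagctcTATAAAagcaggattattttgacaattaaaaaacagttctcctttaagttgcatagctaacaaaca
beat-IIb, chr3R:17265050-17265199, minus strand: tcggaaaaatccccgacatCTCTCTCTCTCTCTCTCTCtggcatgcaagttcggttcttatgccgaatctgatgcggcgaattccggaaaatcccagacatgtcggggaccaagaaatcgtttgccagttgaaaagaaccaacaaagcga
Nep3, chrX:19961147-19961296, plus strand: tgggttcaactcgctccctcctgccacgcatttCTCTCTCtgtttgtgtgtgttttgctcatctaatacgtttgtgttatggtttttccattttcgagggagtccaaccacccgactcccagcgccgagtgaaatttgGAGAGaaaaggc
zfh1, chr3R:30765776-30765925, plus strand: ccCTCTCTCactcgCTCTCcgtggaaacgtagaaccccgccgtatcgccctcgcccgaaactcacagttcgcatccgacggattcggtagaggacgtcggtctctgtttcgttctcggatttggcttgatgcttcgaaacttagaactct

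The member windows scored far apart in the 2 genotypes that chose them. Their median RT was 0.297 and 0.163 in the Rif1 mutant libraries, against -1.43 and -1.79 in the wild-type salivary gland libraries. As a rank among eligible windows of the same library, where 0 is the latest and 100 the earliest, the medians were 75.2 and 66.1 in the Rif1 mutant against 9.59 and 8.86 in wild type. A rank does not depend on the scale of a library, which matters here: the SD of smoothed RT over eligible windows was 1.13 and 1.33 in wild-type salivary gland against 0.422 and 0.488 in the Rif1 mutant.

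Of 8295 eligible windows in the wild-type range, 5524 lay far enough from underreplicated windows, and the members made up 46.5% of these. A set of 1649 windows in 26 domains stayed late, with a Rif1 mutant mean below -0.27, its 25th percentile over eligible windows. The other 1307 fell in neither set. At the Rif1 limit, the 50 members just inside had means of -0.070 to -0.063 and the 50 late windows just outside had means of -0.078 to -0.070. Those neighbours had median SuUR mutant scores of -0.26 inside and -0.66 outside. They also differed in wild-type salivary gland (-1.71 and -2.12) and wing disc (-0.14 and -0.43), so the difference was not particular to the SuUR mutant. Fat body had -0.77 and -0.74 and follicle cells -0.22 and -0.24. At the upper wild-type limit, the 50 nearest inside and the 50 nearest outside had median SuUR mutant scores of -0.24 and -0.27. A distance could be taken only to windows with both wild-type libraries, and 193 members lay within 100 kb of a window that was below -2.85 in its only wild-type library.

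The SuUR mutant did not enter the choice. There the member windows had median RT of -0.347 and -0.427, and median ranks of 27.4 and 23.7. The windows that stayed late without Rif1 had -0.719 and -0.758, with ranks of 10.3 and 6.65. Both SuUR libraries thus placed the members above the windows that stayed late, by 0.372 and 0.331 in score and by 17 and 17.1 percentile points in rank, and both placed them below the middle of the genome.

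**Figure D1:**
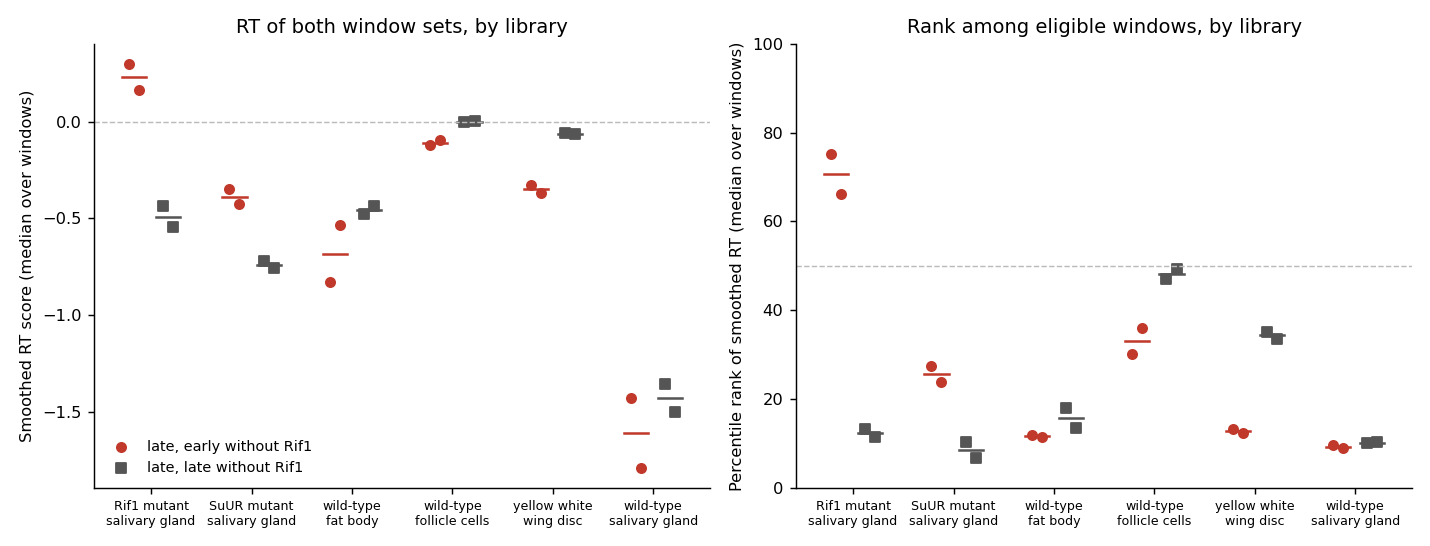
Median smoothed RT score (left) and median percentile rank among eligible windows (right) of 2568 late windows that were early without Rif1 (circles) and 1649 late windows that stayed late (squares). Each point is 1 library and each line the mean of 2 libraries. In the SuUR mutant the circles lie at ranks of 27.4 and 23.7 and the squares at 10.3 and 6.65, whereas in wing disc the circles lie lower, at 13.3 and 12.4 against 35.2 and 33.6.

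In the other tissues the order of both sets by median rank was turned round. The members ranked at 13.3 and 12.4 in wing disc, against 35.2 and 33.6 for windows that stayed late. In follicle cells the members ranked at 30.1 and 36.0, against 47.0 and 49.2. In fat body they ranked at 11.8 over 2566 members in the first library and 11.5 over 1670 in the second, against 18.1 over 1648 and 13.4 over 1251 windows that stayed late. Both libraries of each tissue gave the same order, although the fat body order was level when members were chosen without the first wild-type salivary gland library (14.7 for members against 14.6). With 2 libraries per group no permutation test over libraries can pass 0.05, and these orders are given as values. The 1307 late windows in neither set ranked at 13.6 and 11.8 in wing disc and 26.5 and 29.3 in follicle cells. In fat body they ranked at 8.35 and 8.04. Low ranks in these tissues were thus not particular to the members.

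Quartiles of each group's mean RT over eligible windows, with Q1 the earliest and Q4 the latest, gave the spread over windows. In the SuUR mutant 51.1% of 2539 members with a value were in Q4 and 37.6% in Q3, against 89.4% of the windows that stayed late in Q4. In the Rif1 mutant, which chose them, 42.5% of members were in Q1 and 18.5% in Q3. The Rif1 limit of the choice lay below the Rif1 mutant median over eligible windows, so members in Q3 were later than that median. Early without Rif1 thus means above the limit, and not earlier than the median for every member. In fat body 80.8% of 1670 members with a value were in Q4, in wing disc 65.3% and in follicle cells 40.0%, against 83.2%, 34.3% and 14.9% of the windows that stayed late. The order of both sets by Q4 share was thus turned round in wing disc and follicle cells but not in fat body. Follicle cells held 17% of the members in Q1 and wing disc 10.7%, against 13.7% and 18.4% of the windows that stayed late.

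**Figure D2:**
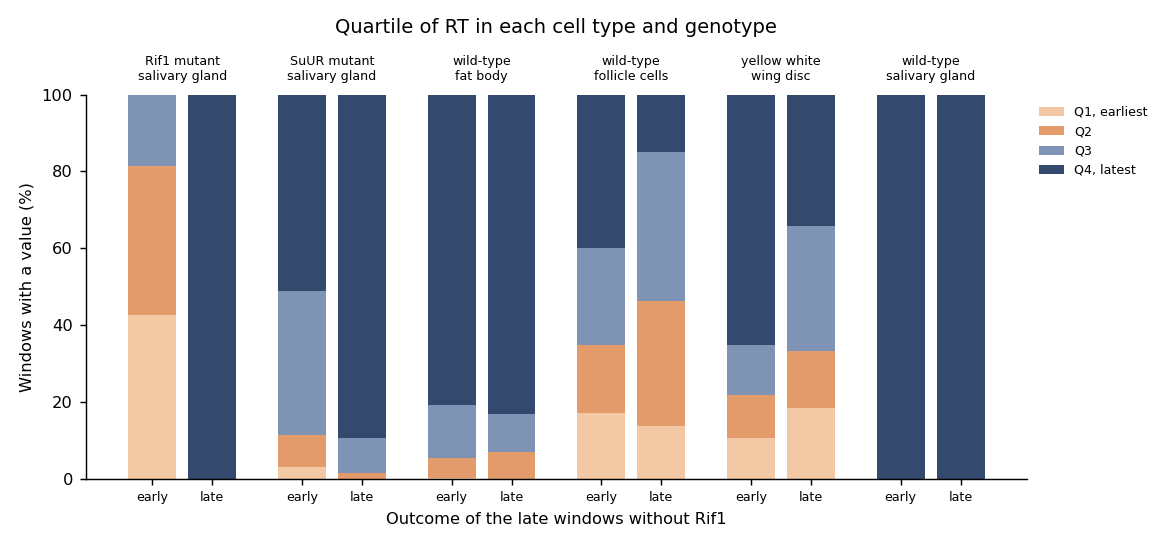
Share of windows with a value (%) in each RT quartile, for the late windows that were early (left bar of each pair) and late (right bar) without Rif1, by group. Members were in Q4 for 51.1% in the SuUR mutant, 80.8% in fat body, 40.0% in follicle cells and 65.3% in wing disc, and 100% in wild-type salivary gland by the rule.

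Of 1643 members with a value in the SuUR mutant, fat body, follicle cells and wing disc, 214 were in Q4 in all 4 and 7 in none of them. Most were in Q4 in 2 (763) or 3 (452) of them. None was in Q1 or Q2 in 3 or more of these groups, 362 were in 2 and 465 in 1.

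Fat body was the least complete group. Its second library had no smoothed value in 898 of the 2568 members, or 35.0%, against 5.92% of eligible windows, and its first library lacked 2. Fat body means and quartiles therefore rest on 1670 members, while values of the first library rest on 2566. Across those 1670 members the mean fat body score had a Pearson correlation of 0.75 with the mean wild-type salivary gland score and of -0.084 with the Rif1 mutant score. Neighbouring windows share smoothed values, so these coefficients are descriptions.

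Choosing members in 1 replicate and reading the other gave a measure that the choice had not used. The first replicates of wild type and the Rif1 mutant chose 3808 windows, of which 1980 were among the members (52.0% of the chosen and 77.1% of the members). In the second replicates these windows had medians of 0.235 in the Rif1 mutant, -0.413 in the SuUR mutant and -2.20 in wild type. The second replicates chose 2057 windows, of which 1530 were members (74.4% and 59.6%), and in the first replicates their medians were 0.307, -0.283 and -1.16 in the same order. The Rif1 mutant score read in the other replicate stayed above the limit in 81.3% and 91.4% of the chosen windows. In the other replicate, 3267 of the 3808 windows chosen in the first replicates had a wild-type score. Of these, 98.5% were at or below the upper wild-type limit. For windows chosen in the second replicates it was only 53.7% of 2055 with a score.

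Differences were tested on rawRT, the score before smoothing, averaged over bins of 10 windows and fitted with limma over 11153 to 11885 bins per comparison, with 2 libraries a group and a Benjamini-Hochberg adjusted p below 0.05 as the call. Of these bins, 264 were member bins, in which members made up 0.5 or more of the windows, and 168 were bins of windows that stayed late. In the Rif1 mutant against wild type, the comparison that chose them, 256 of 264 member bins were higher (22.3% of all bins were), from which nothing is read.

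The SuUR mutant was higher than wild type in 175 of 263 member bins, or 66.5%, against 13.8% of all bins and 63 of 159 bins of windows that stayed late. The median difference was 1.35 over member bins and 0.89 over bins that stayed late, and 259 of the 263 differences were positive. Members were chosen to be low in these wild-type libraries, which favours a positive difference in both sets. With each library divided by its signal SD, 50 of 263 member bins were called, or 19.0%, against 5.79% of all bins. Without the second wild-type library 103 of the 263 were called.

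The Rif1 mutant was higher than the SuUR mutant in 60 of 263 member bins, or 22.8%, against 9.69% of all bins and 1 of 159 bins that stayed late. The choice used the Rif1 mutant libraries, so a positive difference was favoured in members. The windows that stayed late were chosen as low in the same libraries, which disfavoured a positive difference there. Nothing is therefore read from the contrast between both sets. The count depended on single libraries: 5 bins were called without the first Rif1 mutant library and 15 without the second. The median difference was 0.60 score units, positive in 252 of 263 bins.

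Follicle cells were higher than wild-type salivary gland in 251 of 264 member bins, or 95.1%, against 37.1% of all bins, and wing disc in 230 of 264, or 87.1%, against 31.1% of all bins. The members were chosen to be low in these wild-type libraries, so high shares follow in part from the choice, here and in fat body against wild-type salivary gland. The scores of these sorted nuclei came from another method and had a narrower spread, with SDs of 0.408 and 0.442 in follicle cells and 0.291 and 0.307 in wing disc. After division by the signal SD, wing disc was higher in 76 and lower in 32 of the 264 member bins. The windows that stayed late gave 163 and 146 of 168 bins, so high shares were not particular to the members.

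Fat body was higher than wild-type salivary gland in 30 of 175 member bins, or 17.1%, against 7.94% of all bins and 30 of 129 bins that stayed late. This result did not hold: no member bin was called without either wild-type salivary gland library (by limma, 59 and 39 were higher at an unadjusted p below 0.05). Without the first fat body library 53 of 175 were higher, and without the second 67 of 264. After division by the signal SD 17 member bins were higher and 45 lower, and after quantile normalization 36 were higher and 28 lower.

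The other 2 comparisons used no library of the choice. Fat body was lower than the SuUR mutant salivary gland in 49 of 174 member bins, or 28.2%, against 7.94% of all bins and 11 of 120 bins that stayed late. It was higher in 7, or 4.02%, against 4.81% of all bins. The median difference was -0.64, and -0.031 over bins that stayed late. Without the first or the second SuUR mutant library no member bin was called by limma, with 60 and 65 lower at an unadjusted p below 0.05. Without the first fat body library 38 of 174 were lower, and without the second 82 of 263.

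Follicle cells were higher than wing disc in 80 of 264 member bins, or 30.3%, and lower in 28, or 10.6%, against 17.1% higher and 18.4% lower among all bins. The bins that stayed late had 46 higher and 24 lower of 168. Without the first or second follicle cell library, 35 and 31 member bins were higher.

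The members lay in 36 domains, formed by joining member windows less than 10 windows apart, with a median span of 55.6 kb and a largest of 348 kb. The domains with at least 20 windows numbered 30 and held 2508 members. Arm 3L carried 932 members in 7 domains, 3R 605 in 14, 2L 424 in 4, X 405 in 7 and 2R 202 in 4. The members were 67.7% of the qualifying late windows on 3L but 28.9% on 2R. File coordinates (dm6) are rounded to 5 digits, so an edge on an arm beyond 10 Mb is known to 1 kb.

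In the domain means, the Rif1 mutant spanned -0.060 to 1.29, with a median of 0.10, and wild type spanned -2.37 to -1.15, with a median of -1.44. The SuUR mutant spanned -1.14 to 0.29, with a median of -0.37. Its excess over wild type was 0.12 to 2.45 with a median of 1.15, at least 1 in 24 of the 36 domains and under 0.5 in 1. The Rif1 mutant was above the SuUR mutant in 35 of 36 domains, by a median of 0.56. Domains were chosen as low in wild type and high in the Rif1 mutant, which favoured a positive sign in both differences. Nothing is read from either count.

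**Figure D3:**
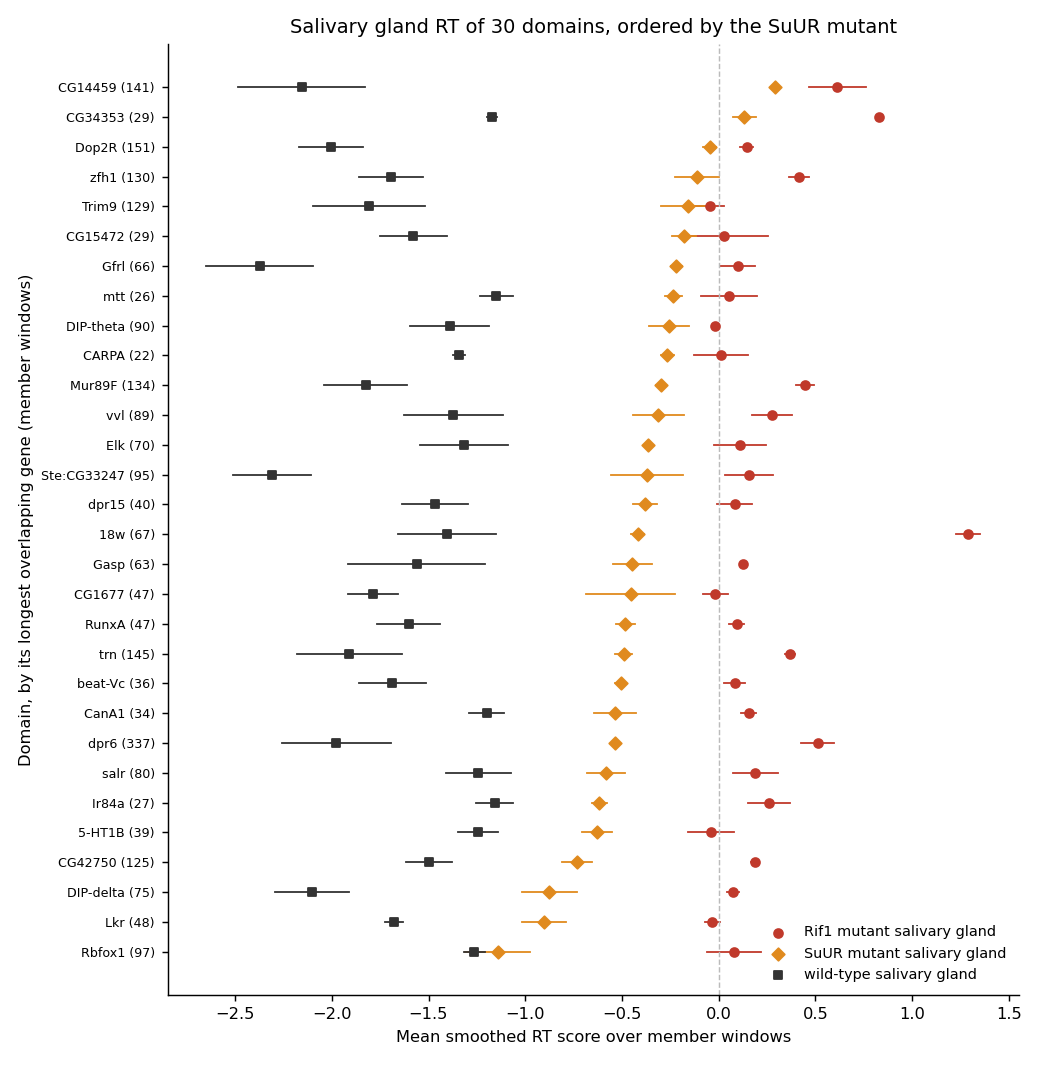
Mean smoothed RT score over the member windows of each of 30 domains with at least 20 windows, in Rif1 mutant (circles), SuUR mutant (diamonds) and wild-type (squares) salivary glands, with a line joining the 2 libraries. The domains are named by their longest overlapping protein-coding gene, with the number of member windows. The SuUR mutant runs from -1.14 in the Rbfox1 domain to 0.29 in the CG14459 domain while the Rif1 mutant stays near or above 0.

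The largest domain, chr3L:9985400-10333000 with 337 members (bands 67D2 to 67E2), overlapped dpr6, dpr10, ect and scramb1, the first pair being cell surface proteins of neurons and the last a phospholipid scramblase. Its mean RT was 0.598 and 0.426 in the Rif1 mutant and -0.520 and -0.554 in the SuUR mutant, against -1.70 and -2.26 in wild-type salivary gland. The SuUR mutant lay between both, with no overlap of the libraries, where the choice had set wild type low and the Rif1 mutant high. Of the domain's 34 bins, 22 were higher in the SuUR mutant than in wild type, against 13.8% of all bins. The Rif1 mutant was higher than the SuUR mutant in 23, against 9.69% of all bins (median difference 1.09, median SE 0.29). The choice favoured both kinds of call, in this and the other named domains. This domain scored -1.79 and -1.23 in fat body, -0.186 and -0.079 in follicle cells and -0.423 and -0.530 in wing disc. Fat body was lower than the SuUR mutant in 14 of 30 bins.

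The Dop2R domain, chrX:19960000-20119000 with 151 members, also overlapped Nep3, CG9570 and lky. It scored 0.111 and 0.178 in the Rif1 mutant and -0.081 and -0.013 in the SuUR mutant, against -1.84 and -2.17 in wild type. Over its 16 bins the median difference of the Rif1 minus the SuUR mutant was 0.16 (median SE 0.29), and 15 of 16 were higher in the SuUR mutant than in wild type. Follicle cells scored -0.224 and -0.274 and wing disc -0.652 and -0.703.

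The CG14459 domain, chr3L:22474000-22639000 with 141 members, overlapped Trxr2, a thioredoxin reductase gene, CG11425 and CG11404. It lay near the limit of 22721203 on 3L, from which windows were left out as proximal heterochromatin. It had the highest SuUR mutant score of the large domains, 0.316 and 0.269, beside 0.466 and 0.761 in the Rif1 mutant and against -1.83 and -2.49 in wild type. Over its 15 bins the median difference of the SuUR mutant minus wild type was 2.93, in a domain named for its high SuUR mutant score among windows chosen as low in wild type. It was late in follicle cells (-0.601 and -0.634) and wing disc (-0.563 and -0.586).

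The trn domain, chr3L:13074000-13219000 with 145 members, held trn (tartan), a leucine-rich repeat cell surface protein, snky, a sperm protein, CG11251 and CG17300. It scored 0.394 and 0.343 in the Rif1 mutant and -0.534 and -0.450 in the SuUR mutant, against -1.64 and -2.18 in wild type. Of its 14 bins 12 were higher in the SuUR mutant than in wild type. It was early in follicle cells, at 0.327 and 0.376, and in wing disc, at 0.202 and 0.261.

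The Mur89F domain, chr3R:17199000-17334000 with 134 members, overlapped Mur89F, a mucin-related gene, beat-IIa, beat-IIb and CG31262. It scored 0.400 and 0.493 in the Rif1 mutant and -0.271 and -0.322 in the SuUR mutant, against -1.61 and -2.04 in wild type. Fat body scored -2.02 and -1.46 there. Its scores had a narrower spread than those of wild-type salivary gland (SDs of 0.816 and 0.582 against 1.13 and 1.33), so the levels of both are not compared. Of 14 bins, 12 were lower in fat body than in the SuUR mutant (median difference -1.59, median SE 0.33). Follicle cells scored 0.047 and 0.074 and wing disc -0.543 and -0.573, and 11 of 14 bins were higher in follicle cells than in wing disc.

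The zfh1 domain, chr3R:30632000-30770000 with 130 members, also overlapped PH4alphaPV, a prolyl 4-hydroxylase gene, Spn100A, a serpin gene, and CG31013. It scored 0.466 and 0.362 in the Rif1 mutant and 0.003 and -0.228 in the SuUR mutant, against -1.53 and -1.86 in wild type. Of its 13 bins 11 were higher in the SuUR mutant than in wild type, and 2 were higher in the Rif1 mutant than in the SuUR mutant.

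The lowest SuUR mutant score was in the Rbfox1 domain, chr3L:10460000-10559000, with 97 members. It overlapped Rbfox1, an RNA-binding protein gene, Gem3, an RNA helicase gene, and S-Lap3 and S-Lap4, which encode sperm leucyl aminopeptidases. It scored 0.220 and -0.061 in the Rif1 mutant and -1.31 and -0.974 in the SuUR mutant, against -1.32 and -1.21 in wild type. The SuUR mutant and wild-type libraries overlapped, and the median difference over 10 bins was 0.10 (median SE 0.33). The median difference of the Rif1 minus the SuUR mutant was 1.45, in a domain named for its low SuUR mutant score among windows chosen as high in the Rif1 mutant. The same DNA had the highest score in fat body (-0.203 and 0.344) among the 27 domains with a fat body mean. It also had the highest domain score in follicle cells (0.307 and 0.439), and all 10 bins were higher in follicle cells than in wing disc.

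The Lkr domain, chr3L:5486200-5534200 with 48 members, had the next lowest SuUR mutant score, -1.02 and -0.791, beside -0.073 and 0.005 in the Rif1 mutant and against -1.63 and -1.72 in wild type. It holds the leucokinin receptor gene Lkr, CG34342, CG13285 and blanks, an RNA-binding protein gene of the testis. The CG34353 domain, chr3R:27806000-27835000 with 29 members, had the next highest SuUR mutant score, 0.195 and 0.072, beside 0.820 and 0.837 in the Rif1 mutant and against -1.14 and -1.20 in wild type. CG34353 was the only protein-coding gene that it overlapped, and none started in it.

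Fat body had a mean in 27 of the 36 domains, and the others could not be ranked. In fat body the latest was chrX:14041000-14169000, which overlapped Ste:CG33247 and CG12479 and scored -2.93 and -1.95. Next was chrX:7384300-7431300 over CG1677, rumpel, CG15035 and CG42705, at -2.24 and -1.41. Stellate genes such as Ste:CG33247 are repeated copies, and the score there covers only uniquely alignable bases. In the first of these, fat body was lower than the SuUR mutant in 8 of 10 bins (median difference -2.53, median SE 0.44). Fat body was highest in the Rbfox1 domain and at chr2R:20098000-20165000, over 18w, a Toll-family receptor gene, and CG11041 (-0.128 and 0.252).

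That 18w domain also had the highest Rif1 mutant score, 1.23 and 1.35, beside -0.385 and -0.451 in the SuUR mutant and against -1.15 and -1.66 in wild type. Its median difference of the Rif1 minus the SuUR mutant was 1.74, which describes a domain singled out for its Rif1 mutant score. All 7 bins were lower in follicle cells than in wing disc.

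In follicle cells the highest scores were at the Rbfox1 domain and at chr2L:18076000-18201000 (0.329 and 0.397), which overlapped CG42750, Socs36E, an inhibitor of JAK/STAT signalling, CG5758 and kel, a ring canal protein. The latest were chr2R:17923000-17993000 (-0.628 and -0.683), over the potassium channel gene Elk, dpr13 and PpY-55A, and the CG14459 domain. In wing disc the highest was chr2L:11355000-11435000 (0.358 and 0.434), which overlapped salr and salm, transcription factor genes of wing patterning, followed by the trn domain. There fat body scored -1.97 and -1.44 and was lower than the SuUR mutant in 6 of 9 bins. The latest in wing disc were chr3R:20369000-20435000 (-0.771 and -0.839), over Gfrl, Tmlh and eIF3g2, and the Elk domain (-0.700 and -0.748).

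Across the 30 large domains, RT at the domain was set against flanks 50 to 150 windows away. In the SuUR mutant the domain was below its flanks in both libraries in 23 domains and above in both in 4, with a median dip of -0.23. The Rif1 mutant had a median dip of -0.079, with 17 below and 11 above, and wild type -1.16, with 28 below and 1 above. The domains were chosen as low in wild type and high in the Rif1 mutant. A deep wild-type dip and a shallow Rif1 mutant dip therefore follow in part from the choice. Dips were not compared with those of domains that stayed late. The domain was also below its flanks in both libraries in 23 of 30 domains in follicle cells, in 21 of 30 in wing disc and in 13 of 22 in fat body.

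**Figure D4:**
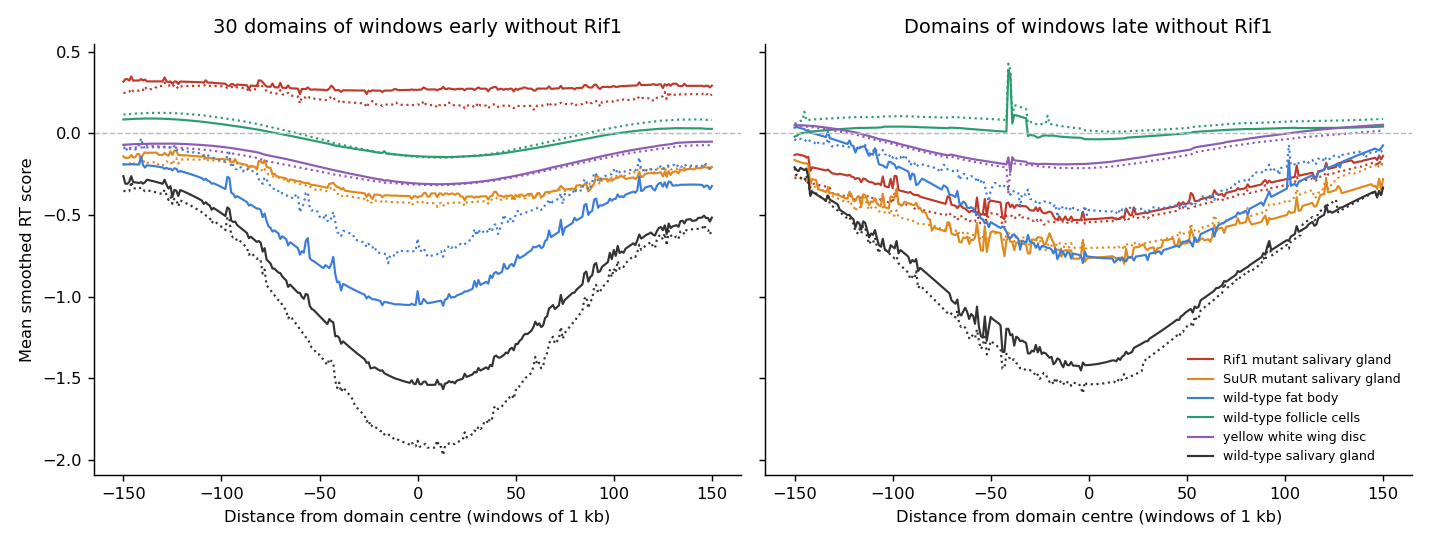
Mean smoothed RT score against distance from the domain centre in windows of 1 kb, for 30 domains of late windows early without Rif1 (left) and 22 domains of windows that stayed late (right). Solid and dotted lines are the first and second library of each group. At the centre on the left the Rif1 mutant is at 0.266 and 0.178, the SuUR mutant at -0.394 and -0.421 and wild-type salivary gland at -1.51 and -1.88. On the right, both follicle cell lines have a narrow peak left of the centre.

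On features that the choice did not use, the members were poor in genes. Exons covered 15.0% of their bases and coding exons 7.59%, against 11.5% and 6.08% in windows that stayed late and 30.5% and 19.6% in all eligible windows. Genes covered 49.2% of member bases, against 70.7% in windows that stayed late and 73.6% overall. Protein-coding genes started at 5.84 per 100 kb, against 4.79 and 12. G and C content was 42.0%, against 40.2% and 42.6%.

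**Figure D5:**
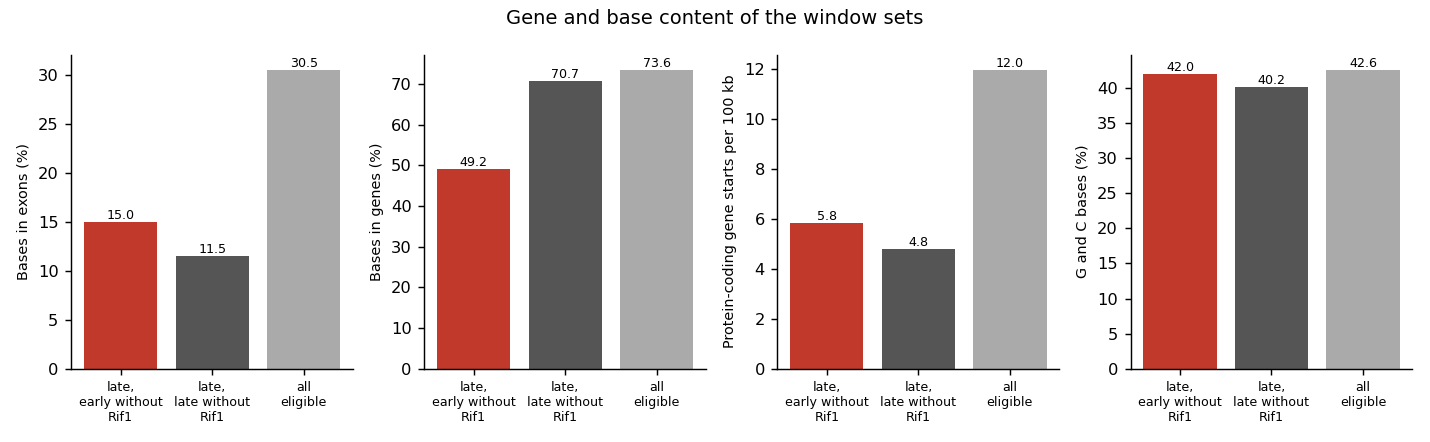
Share of bases in exons, share of bases in genes, protein-coding gene starts per 100 kb and G and C content, for late windows early without Rif1, late windows that stayed late and all eligible windows. Members had 49.2% of bases in genes against 70.7% in windows that stayed late, while exon shares were 15.0% and 11.5%.

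The 173 protein-coding genes that overlapped member windows had a median length of 1.79 kb, against 2.37 kb over 94 genes in windows that stayed late and 2.14 kb overall. Genes over 50 kb were 13 of the 173, or 7.51%, against 18.1% and 2.06%. Among the 30 large domains, the exon share ran from 1.93% to 47.9% with a median of 12.5%, and the G and C content from 37.9% to 45.9%.

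Several gene families of the nervous system and of chemical sensing started in member windows. They were DIP-eta, DIP-theta, DIP-delta and dpr10, whose proteins pair at neuronal surfaces (4 of 246 genes started, or 1.63%, against 0.164% of all 17100 and 0 of 121 in windows that stayed late). The odorant receptors Or67c, Or67d and Or83c, the ionotropic receptors Ir64a, Ir84a and Ir92a and the odorant binding proteins Obp83cd, Obp83ef and Obp83g gave 3 each, or 1.22%, against 0.339%, 0.363% and 0.298% of all. In windows that stayed late, 2 of 121 genes were odorant receptors, or 1.65%, above the share in members, and 0 were of the other pair of families. Genes of 1 domain are not independent: the Obp genes with Or83c, DIP-eta with DIP-theta, and Or67c and Or67d with dpr10. With shares of 0.164% to 0.363% of all genes, 0 of 121 in windows that stayed late is not read as a difference. There were 10 transfer RNA genes (4.07%, against 2.48% in windows that stayed late and 1.68% of all), 1 beat gene and 1 cytochrome P450 gene, Cyp6a16. No gustatory receptor, cuticle, chorion, glue, Osiris or ribosomal protein gene started in a member window or in one that stayed late, and none of the 15 replication genes listed did. Those families are small, from 0.0409% of all genes for glue proteins to 0.713% for cuticle proteins, so 0 of 246 is not read as a difference.

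As a check of genotype, the 6 windows over the Rif1 gene had median rawRT of -1.21 and -1.33 in the Rif1 mutant libraries, against 0.488 and 1.24 in wild-type salivary gland. The 6 windows over SuUR had 0.103 and 0.615 in the SuUR mutant against 1.06 and 0.840 in wild type, but the Rif1 mutant had 0.949 and 0.107 and wing disc 0.071 and -0.118, so this value does not single out the SuUR genotype. Neither gene overlapped a member window. The deposited scores keep no read depth, so the depth behind them is unknown.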

How the data were processed

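Whole-genome DNA of salivary glands and fat bodies was sequenced, and follicle cell and wing disc values came from S-phase nuclei published earlier. Per the study's methods, reads were aligned to dm6 with BWA 0.7.17, and the authors deposited scores for windows of 1000 uniquely alignable bp: rawRT scores, corrected for GC content, filtered for outliers and scaled on the chromosome arms, and smoothed RT scores. Both files hold scores with no read counts.

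Members, domains, ranks and quartiles used the smoothed RT scores. A group mean required both libraries. Differences were tested with limma 3.58.1 (R 4.3.3, lmFit and eBayes) on mean rawRT of 10-window bins with a minimum of 5 values per library, 4 libraries per fit, without a block. The test was also tried on simulated data. Genes came from the RefSeq annotation and sequences from its dm6 assembly. Python 3.11.15 was used.

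Named were the 6 domains with the most members, then, among domains with at least 20 windows, the 2 highest and 2 lowest in the SuUR mutant, fat body, follicle cells and wing disc, with up to 4 genes each by length and genes of listed families. The 18w domain's Rif1 mutant value was singled out after it was seen. The members and lists were chosen with earlier results of these data known.

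Labels call the replicates separate samples and the methods call salivary gland and fat body libraries biological duplicates. With 2 libraries per group, p-values rest on variance shared across bins. Replicate numbers were not taken as pairs: the labels give no shared batch, and same-numbered libraries had deviations correlated at 0.205 (Rif1 mutant and wild-type salivary gland), 0.343 (SuUR mutant and wild type), 0.225 (both mutants) and -0.475 (fat body and wild type).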

Additional observations from a re-analysis of the deposited data

How the results depend on the processing

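Values are the percent of tested member bins called in the leading direction unless said otherwise, against 66.5 for the SuUR mutant minus wild type, 22.8 for the Rif1 minus the SuUR mutant, 17.1 for fat body and 87.1 for wing disc minus wild-type salivary gland, 28.2 lower for fat body minus the SuUR mutant and 30.3 for follicle cells minus wing disc. Division by the signal SD gave 19.0 for the SuUR mutant minus wild type, 28.8 for wing disc and 9.71 for fat body minus wild type, where more bins were lower (45) than higher (17), and quantile normalization gave 44.7 for wing disc. Bins of 50 windows gave 57.4, 34.2 and 50 and smoothed RT 62.0, 45.7 and 54.2 for the Rif1 minus the SuUR mutant, fat body minus wild type and follicle cells minus wing disc. Analysis of variance over windows gave 61.1, 63.2, 47.4 lower and 18.5 for the Rif1 minus the SuUR mutant, fat body minus wild type, fat body minus the SuUR mutant and follicle cells minus wing disc. The cause of these changes was not tested.

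Leaving out 1 library gave 88.6 to 95.8 for the Rif1 mutant minus wild type, 39.2 to 63.9 for the SuUR mutant minus wild type, 1.90 to 18.3 for the Rif1 minus the SuUR mutant, 0.0 to 30.3 for fat body and 76.9 to 98.9 for follicle cells and 66.7 to 94.3 for wing disc minus wild type, 0.0 to 31.2 for fat body minus the SuUR mutant and 11.7 to 31.8 for follicle cells minus wing disc. The replicate number as a block gave 0.0 for fat body minus wild type (no call in any bin by limma, with 59 member bins higher and 0 lower at an unadjusted p below 0.05) and moved no other count of member bins in the leading direction by over 1.5 times; the replicates share only a number. For the Rif1 minus the SuUR mutant the block gave 89 member bins, 13 of 159 bins that stayed late (1 without it) and 1702 of all bins (1121 without it). For fat body minus the SuUR mutant it gave 342 higher bins of all (536 without it) and 7 lower bins that stayed late (11 without it). Crossing the numbers, an alternative added after the data were seen, gave 40.6 there and 33.3 for fat body minus the SuUR mutant.

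A Rif1 limit at the 75th percentile left 1092 members. Choosing from rawRT gave 1949 members in 115 domains, of which 1164 were shared, or 45.3% of the members, so which windows are members depends on the smoothing. Leaving out 1 library gave 2319 to 3563, with 71.6% to 96.6% of the members shared. The mean rank of the members moved by more than the spread between libraries in these settings. In the SuUR mutant it was 29.0 with a 200 kb distance, 29.9 with members from rawRT and 37.0 for rawRT values (23.7 to 29.4 without 1 library). In fat body it was 11 with 50 kb, 14.0 with members from rawRT, 9.29 with the 75th percentile, 14.9 with the mean of available libraries, chosen after seeing the data, and 20.5 for rawRT values (9.77 to 14.7). In follicle cells it was 38.0 with the 75th percentile, 27.1 with available libraries and 44.4 for rawRT values (25.6 to 36.4). In wing disc it was 14.0 with 50 kb, 11 with 200 kb, 15.1 with members from rawRT, 16.5 with available libraries and 36.5 for rawRT values (12.4 to 17.2).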
